A study of Mus musculus with 6 samples.

Results

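The MYC, MAX and MXD network was examined in mouse acute lymphoblastic leukaemia driven by BCR-ABL1, the kinase made by the Philadelphia chromosome. Its members were taken as every probe set whose platform annotation gives exactly 1 of 10 symbols: Myc, Mycn, Max, Mxd1, Mxd3, Mxd4, Mxi1, Mnt, Mlx and Mga. All 10 genes were represented, by 26 of the 45037 probe sets tested, or 10 of 18193 named genes. The study compared 3 arrays of AID-/- leukaemia, which lacks activation-induced cytidine deaminase (AID), with 3 arrays of AID+/+ leukaemia, in which the gene is intact. AID mutates immunoglobulin genes by turning cytosine in DNA into uracil. Both groups are labelled Balb/c leukaemia cells and share the BCR-ABL1 oncogene named in the study's title; age, sex and the means of introducing the oncogene are not given in the sources used here. The labels call the arrays biological replicates but tie none of them to an animal, so the spread behind each p-value may be partly technical. Values are RMA expression values on the log2 scale, where 1 unit is a doubling, and ran between 2.15 and 14.33. No detection calls were used, so no gene is called absent.

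MYC and MYCN are transcription factors of the basic helix-loop-helix leucine zipper class. They bind DNA as heterodimers with MAX, mostly at the E-box CACGTG, and raise transcription of genes for ribosome production, nucleotide synthesis and cell growth. The MXD proteins (MXD1, MXI1, MXD3 and MXD4) and MNT compete for MAX and recruit SIN3 and histone deacetylases to repress the same kind of gene, while MGA joins MAX to a Polycomb repressor complex. MLX is a MAX-like protein that pairs with MXD1, MXD4, MNT and the glucose-sensing factors MondoA and ChREBP. In B-lineage progenitors, MYC proteins couple cytokine and pre-B cell receptor signals to proliferation.

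The 250 bases before the RefSeq transcription start are shown for the 4 genes with a called probe set, in the GRCm38.p6 assembly, because these are the windows in which factors of the network and of the cell cycle would be looked for. Of the 10 genes, 9 matched the RefSeq promoter table, with 11 starts, and Myc is the remaining gene. Capitals mark the E-box CACGTG, which reads the same on both strands, and the E2F-type motifs TTTGGCGC and TTTCGCGC, searched on both strands. The first and second of the 3 E2F-type matches in Mycn overlap.
Mycn, chr12:12941837-12942086 (- strand): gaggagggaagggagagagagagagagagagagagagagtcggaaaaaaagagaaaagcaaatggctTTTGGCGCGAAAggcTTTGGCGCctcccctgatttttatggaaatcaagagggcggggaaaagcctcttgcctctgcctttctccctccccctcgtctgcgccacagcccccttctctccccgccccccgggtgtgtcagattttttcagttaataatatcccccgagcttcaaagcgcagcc
Mxi1, upstream start, chr19:53310256-53310505 (+ strand): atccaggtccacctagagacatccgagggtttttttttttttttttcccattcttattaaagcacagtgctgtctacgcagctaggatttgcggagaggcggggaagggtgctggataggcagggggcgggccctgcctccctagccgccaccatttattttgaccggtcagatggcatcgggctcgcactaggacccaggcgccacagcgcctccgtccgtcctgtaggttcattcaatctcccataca
Mxi1, downstream start, chr19:53329163-53329412 (+ strand): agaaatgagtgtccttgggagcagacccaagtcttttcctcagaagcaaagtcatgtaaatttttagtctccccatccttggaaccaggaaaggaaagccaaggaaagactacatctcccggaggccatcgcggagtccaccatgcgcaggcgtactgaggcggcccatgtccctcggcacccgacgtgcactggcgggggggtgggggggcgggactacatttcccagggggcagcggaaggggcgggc
Mxd4, chr5:34187711-34187960 (- strand): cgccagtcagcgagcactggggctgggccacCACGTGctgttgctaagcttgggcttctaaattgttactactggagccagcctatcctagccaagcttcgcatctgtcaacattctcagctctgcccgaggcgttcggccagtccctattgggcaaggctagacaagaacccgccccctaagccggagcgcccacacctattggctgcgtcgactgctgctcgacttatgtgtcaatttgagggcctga
Mlx, chr11:101087040-101087289 (+ strand): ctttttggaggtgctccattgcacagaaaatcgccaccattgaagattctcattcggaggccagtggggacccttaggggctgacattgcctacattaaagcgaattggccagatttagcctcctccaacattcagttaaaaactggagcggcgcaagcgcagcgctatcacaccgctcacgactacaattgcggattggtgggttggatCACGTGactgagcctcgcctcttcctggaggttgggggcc

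In these windows, CACGTG was found upstream of 3 of 9 matched genes, Mxd4, Mnt and Mlx, beginning 219, 123 and 40 bases before the start. Counted by window, CACGTG was in 3 of the 11 member windows, against 6.02% of 32851 promoter windows of the same length. With the 50 bases after the start added, Max also held it, in a window of 300 bases in which 7.15% of promoters have it. An E2F-type motif was found upstream of Mycn only among the 9 genes, at 3 places that begin 183, 179 and 168 bases before the start. That is 1 of the 11 member windows, against 0.654% of all windows with any. Neither motif occurred before the 3 annotated starts of Mxi1. The printed windows belong to the first and second starts, and the window labelled downstream is that of the second. The third window is not printed because it lies downstream of the second start. A match is a description of these letters, and binding was not measured.

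Of the 26 probe sets, 5 passed the test (limma, adjusted p under 0.05 over all probe sets), which is 3 higher and 2 lower in AID-/- leukaemia. They belong to 4 of the 10 genes: Mycn and Mxd4 and Mlx with 1 higher probe set each, and Mxi1 with both of its probe sets lower. Among all probe sets, 14.6% were called, 7.24% higher and 7.39% lower, so the network's share of called probe sets was close to that background. Of the 26, 23 lay above the median probe set, and that background includes the dim ones. The 3 arrays of a group did not overlap the other group at 11 of the 26 probe sets, 6 higher and 5 lower, against 32.9% of all probe sets, 14.2% higher and 18.7% lower. The median difference over the 26 was -0.04 on the log2 scale, and over all probe sets it was also -0.04. None of the 10 genes lies on chromosome X or Y in the RefSeq table. This bears on the groups because they differed in sex-linked transcripts: Xist was at 4.35 to 6.02 in the AID-/- arrays, against 11.93 to 12.18 in the AID+/+ arrays, and Y-linked Kdm5d at 7.62 to 7.74 in AID-/-, against 2.42 to 2.68 in AID+/+ arrays. Uty, also on the Y chromosome, was at 6.07 to 6.41 in AID-/- and 2.54 to 2.75 in AID+/+ arrays. Eif2s3y, a further Y-linked gene, had 8.85, 3.67 and 2.71 in AID-/- replicates 1, 2 and 3, against 2.51 to 2.59 in the AID+/+ arrays, so it was high in replicate 1 alone. Genotype and sex therefore cannot be told apart here.

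**Figure D1:**
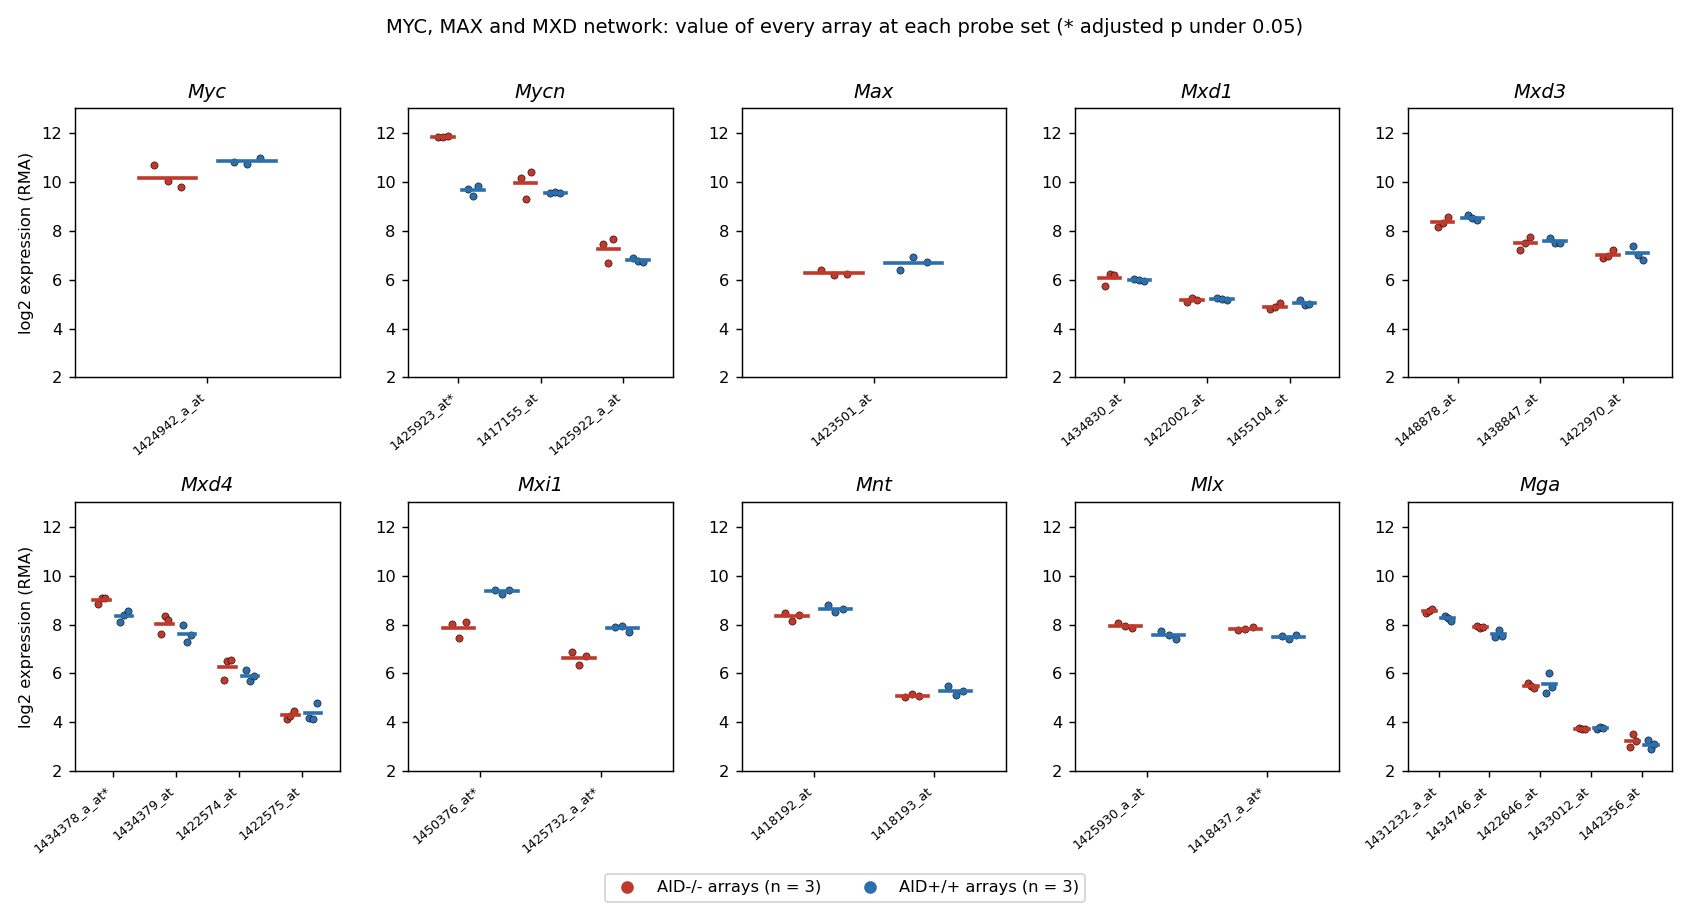
Log2 expression (vertical axis) of each array at each of the 26 probe sets, in 1 panel per gene, with AID-/- arrays (red) left of AID+/+ arrays (blue); points are arrays, bars are means of 3, and asterisks mark an adjusted p under 0.05. The groups separate widely at Mycn 1425923_at (11.81 to 11.87 in AID-/- against 9.40 to 9.82 in AID+/+) and at both probe sets of Mxi1.

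Markers of the B lineage and of other cell types were checked first. All 7 measured genes of the B-lineage marker list lay above the median probe set, with values between 6.77 and 13.24, and their summed signal was 15.02 to 15.10 (log2) in AID-/- and 14.74 to 14.91 in AID+/+ arrays. Of these only Blnk, an adaptor of the pre-B cell receptor, was called, and it was higher. Markers of T cells (5 measured), erythroid cells (4), megakaryocytes (4), stroma and endothelium (5) and NK cells (3) held 0 called genes each in limma, with 0, 1, 1, 0 and 1 at an unadjusted p under 0.05. In the myeloid list 1 of 7 was called, Lyz2, which was higher in AID-/- leukaemia. At an unadjusted p under 0.05 there were 3 in limma: besides Lyz2, Itgam differed by 1.06 and Csf1r by -0.30, both named after their values were seen. The summed myeloid signal was 7.47 to 7.65 in AID-/- and 7.28 to 7.53 in AID+/+ arrays. Its part in the results below was not tested. In bulk RNA, fewer cells of a type and less RNA per cell cannot be told apart.

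Among the activators, Mycn rose at 1 of its 3 probe sets and Myc showed lower values that did not pass the test. Mycn encodes N-MYC, the paralogue best known from neural and early haematopoietic progenitors. Probe set 1425923_at was at 11.81, 11.82 and 11.87 in the AID-/- arrays, against 9.71, 9.40 and 9.82 in the AID+/+ arrays. Every AID-/- array lay above every AID+/+ array, and the AID-/- arrays were nearly identical. It averaged 11.84 ± 0.03 over the AID-/- arrays and 9.65 ± 0.22 over the AID+/+ arrays (SD, n = 3), and rose by 2.19 (SE 0.12) or 4.57-fold, with a limma adjusted p of 1.51e-05. The call held in all 13 alternative fits, with differences of 2.07 to 2.28.

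The other probe sets of Mycn gave smaller differences. At 1417155_at the AID-/- arrays were at 10.16, 9.31 and 10.38, against 9.53, 9.60 and 9.52 in the AID+/+ arrays, a difference of 0.40 (SE 0.24; limma adjusted p = 0.340). At 1425922_a_at the AID-/- arrays were at 7.45, 6.68 and 7.67, against 6.89, 6.75 and 6.71 in the AID+/+ arrays, a difference of 0.49 (SE 0.23; limma adjusted p = 0.213). At both, AID-/- replicates 1 and 3 lay above all AID+/+ arrays and replicate 2 lay below them. Without AID-/- replicate 2 these differences were 0.72 and 0.78 and passed the limma test, with adjusted p of 0.00550 and 0.00499. The difference between 1425923_at and 1417155_at within an array was 1.65, 2.51 and 1.50 in AID-/- and 0.18, -0.20 and 0.30 in AID+/+ arrays, and thus changed by 1.79. Against 1425922_a_at the corresponding change was 1.71. In each case an exact two-sided permutation test gave p = 0.1, the smallest that 3 against 3 arrays allow. Probe set 1425923_at was chosen for its largest group difference in these same arrays. The test therefore cannot decide whether the probe sets differ in their change. With its probe sets averaged, Mycn was higher by 1.03 (SE 0.17; limma adjusted p = 0.00521 over genes).

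Myc encodes c-MYC, the main growth-promoting member in lymphoid cells. Its only probe set, 1424942_a_at, was at 10.66, 10.02 and 9.80 in the AID-/- arrays, against 10.82, 10.73 and 10.97 in the AID+/+ arrays. The groups did not overlap, but AID-/- replicate 1 lay close to the lowest AID+/+ array. It averaged 10.16 ± 0.45 over the AID-/- arrays and 10.84 ± 0.12 over the AID+/+ arrays (SD, n = 3), and the difference was -0.68 (SE 0.20) with a limma adjusted p of 0.0614. Without AID-/- replicate 1 the difference was -0.93 and passed (limma adjusted p = 0.00236); without any other single array it did not, with values up to 0.184. It also passed with the filter on dim probe sets (0.0493), with an intensity trend (0.0449) and with array weights (0.0202), which are limma adjusted p-values. Myc and Mycn thus differed in opposite directions, of which the Mycn change was called and the Myc difference was not.

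The probe sets whose values over the 6 arrays were closest to those of Myc, by the root mean square distance of values centred on their own means, belonged to Cdk6 (0.118 log2 units), Pcgf6 (0.120), Cenpv (0.120) and the Mir142 locus (0.130), out of 19486 named probe sets above the median. The Mir142 probe set does not read the mature miRNA. Their differences were -0.78, -0.87, -0.57 and -0.62, a direction fixed by choosing them for their likeness to Myc. Within the network, Mnt 1418192_at and Max were nearest to Myc, each at 0.31, and Mycn 1425923_at was farthest, at 1.46. This distance depends on the size of a difference as well as on its pattern. The nearly flat Mga 1433012_at was at 0.41, so a distance of 0.31 says little about a shared pattern.

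Max encodes the shared partner of the MYC, MXD, MNT and MGA proteins, and its difference did not pass the test. Probe set 1423501_at was at 6.39, 6.20 and 6.24 in the AID-/- arrays, against 6.39, 6.93 and 6.73 in the AID+/+ arrays. The highest AID-/- array and the lowest AID+/+ array nearly coincided. It averaged 6.27 ± 0.10 over the AID-/- arrays and 6.68 ± 0.27 over the AID+/+ arrays (SD, n = 3), and the difference was -0.41 (SE 0.14; limma adjusted p = 0.0958). Without AID+/+ replicate 1 it was -0.56 and passed (limma adjusted p = 0.0269), as it did with array weights (0.0471).

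**Figure D2:**
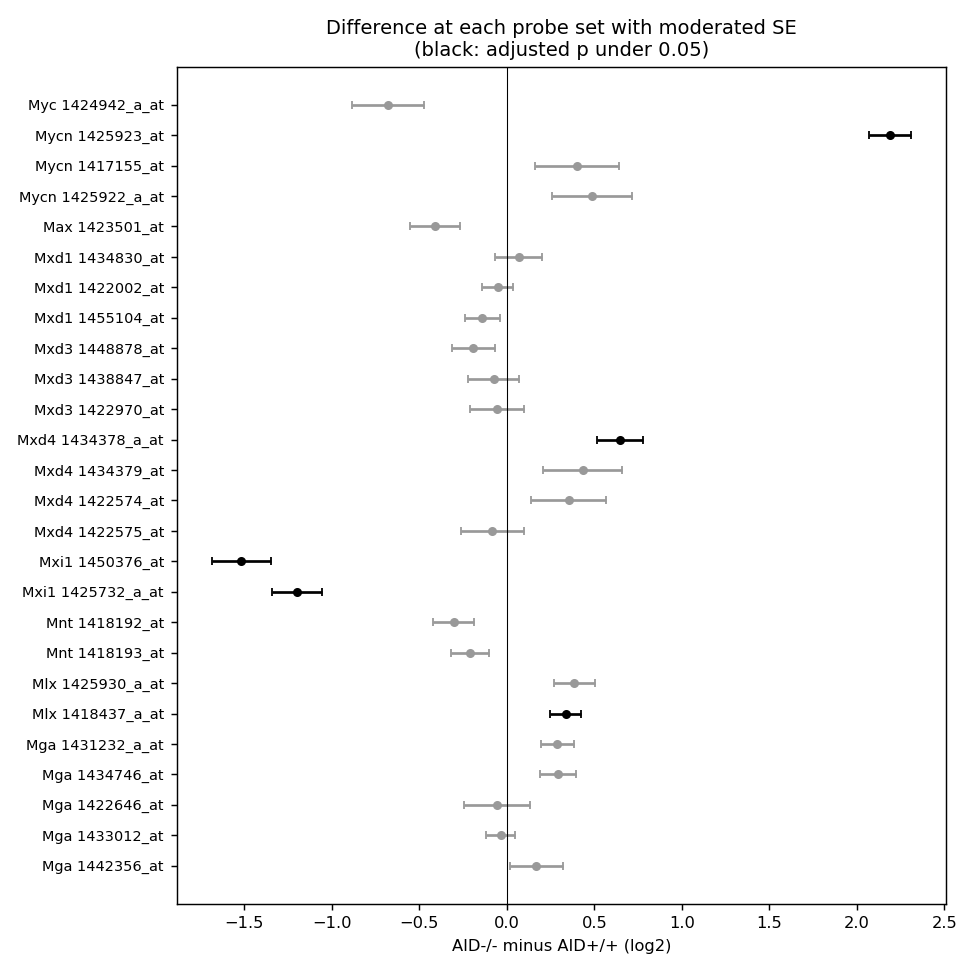
Difference AID-/- minus AID+/+ (horizontal axis, log2) at each of the 26 probe sets, with the moderated standard error as bars; black points passed the test. Mycn 1425923_at stands at 2.19 and the probe sets of Mxi1 at -1.52 and -1.20, while the uncalled probe sets lie between -0.68 and 0.49.

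Among the MXD repressors, Mxi1 fell, Mxd4 rose at 1 probe set, and Mxd1 and Mxd3 showed no called change. Mxi1 encodes MXI1, a SIN3-recruiting antagonist of MYC. Probe set 1450376_at was at 8.01, 7.44 and 8.08 in the AID-/- arrays, against 9.43, 9.24 and 9.43 in the AID+/+ arrays. Every AID-/- array was more than 1 log2 unit below every AID+/+ array. It averaged 7.85 ± 0.35 over the AID-/- arrays and 9.36 ± 0.11 over the AID+/+ arrays (SD, n = 3), and fell by 1.52 (SE 0.17), or 2.86-fold, with a limma adjusted p of 0.000788.

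The second probe set of Mxi1, 1425732_a_at, was at 6.86, 6.35 and 6.72 in the AID-/- arrays, against 7.91, 7.93 and 7.68 in the AID+/+ arrays. It fell by 1.20 (SE 0.14), or 2.29-fold, with a limma adjusted p of 0.00110. AID-/- replicate 2 was the lowest array at both. Both calls held in all 13 alternative fits, with differences of -1.64 to -1.32 at 1450376_at and -1.31 to -1.05 at 1425732_a_at. Mxi1 was the only member gene with more than 1 probe set at which every probe set passed.

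Mxd4 encodes MXD4, a repressor associated with cells leaving the cycle. Its brightest probe set, 1434378_a_at, was at 8.83, 9.07 and 9.07 in the AID-/- arrays, against 8.12, 8.38 and 8.53 in the AID+/+ arrays, without overlap. It averaged 8.99 ± 0.14 over the AID-/- arrays and 8.35 ± 0.21 over the AID+/+ arrays (SD, n = 3), and rose by 0.65 (SE 0.13), or 1.56-fold, with a limma adjusted p of 0.0123. The call held with any single array left out and was lost without variance moderation (adjusted p = 0.0960). At 1434379_at the AID-/- arrays were at 7.61, 8.34 and 8.17 and the AID+/+ arrays at 7.99, 7.27 and 7.56. At 1422574_at the AID-/- arrays were at 5.75, 6.51 and 6.53 and the AID+/+ arrays at 6.13, 5.70 and 5.90. In each case AID-/- replicates 2 and 3 lay above all AID+/+ arrays and replicate 1 did not; the differences of 0.43 and 0.35 did not pass (limma adjusted p = 0.271 and 0.343). Without AID-/- replicate 1 the difference at 1422574_at was 0.61 and passed (limma adjusted p = 0.0257). The fourth probe set, 1422575_at, lay below the median probe set and differed by -0.08. With probe sets averaged, Mxd4 differed by 0.34 and did not pass (limma adjusted p = 0.175 over genes).

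Mxd1 encodes MAD1, a repressor induced when myeloid and other cells differentiate, and Mxd3 encodes the member of the group best known from proliferating cells in S phase. The 3 probe sets of Mxd1 differed by 0.07, -0.05 and -0.14 and the 3 of Mxd3 by -0.19, -0.07 and -0.06. At the brightest Mxd3 probe set, 1448878_at, the arrays were at 8.15, 8.30 and 8.56 in AID-/- and 8.63, 8.52 and 8.44 in AID+/+ leukaemia, and overlapped. The smallest limma adjusted p among the 6 was 0.371. This does not show that the levels were alike.

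Mnt encodes a repressor expressed in most cells irrespective of proliferation. Its probe set 1418192_at was at 8.47, 8.15 and 8.40 in the AID-/- arrays, against 8.78, 8.50 and 8.64 in the AID+/+ arrays, without overlap. The difference was -0.30 (SE 0.12) and did not pass (limma adjusted p = 0.138). At the second probe set, 1418193_at, it was -0.21 (SE 0.11; limma adjusted p = 0.267).

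**Figure D3:**
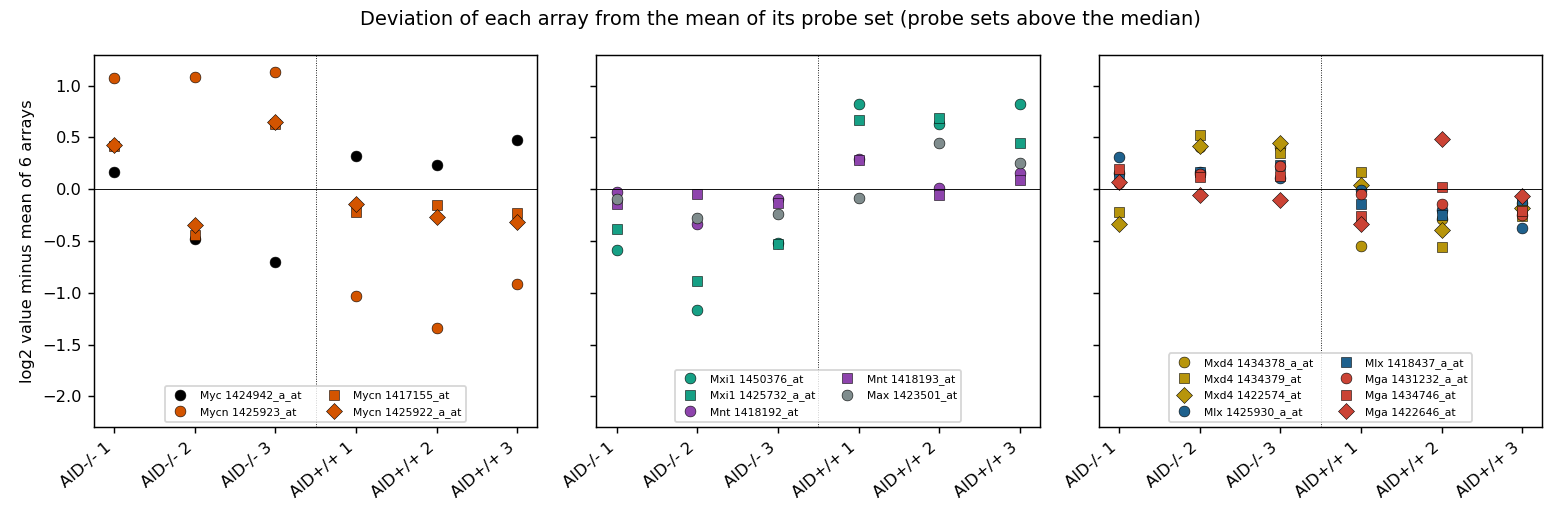
Deviation of each array (horizontal axis, AID-/- left of AID+/+) from the 6-array mean of its probe set (vertical axis, log2) for Myc and Mycn (left), Mxi1, Mnt and Max (middle) and Mxd4, Mlx and Mga (right), for probe sets above the median. AID-/- replicate 2 is the lowest AID-/- array at 2 probe sets of Mycn, at both of Mxi1 and at Mnt 1418192_at, Max and Mga 1434746_at. AID-/- replicate 1 is the lowest AID-/- array at all 3 plotted probe sets of Mxd4. It is also lowest at Mycn 1425923_at, Mnt 1418193_at, Mlx 1418437_a_at and Mga 1431232_a_at.

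Mlx, the partner in the parallel glucose-responsive branch, was slightly higher in AID-/- leukaemia. Probe set 1418437_a_at was at 7.77, 7.83 and 7.90 in the AID-/- arrays, against 7.52, 7.41 and 7.55 in the AID+/+ arrays. It rose by 0.34 (SE 0.09), or 1.26-fold, with a limma adjusted p of 0.0408, and the arrays did not overlap. This call was lost whichever array was left out (limma adjusted p of 0.0536 to 0.129), with an intensity trend (0.0552), without moderation (0.0600) and with the replicate block (0.0911). The second probe set, 1425930_a_at, was at 8.07, 7.93 and 7.87 in AID-/- and 7.76, 7.57 and 7.39 in AID+/+ arrays, a difference of 0.39 (SE 0.12; limma adjusted p = 0.0634). It passed without AID+/+ replicate 1 (limma adjusted p = 0.0430), with the filter on dim probe sets (0.0453) and with array weights (0.0441). With both probe sets averaged, Mlx was higher by 0.36 (SE 0.08; limma adjusted p = 0.0143 over genes).

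Mga encodes a large protein with a T-box besides its MAX-binding domain. Its brightest probe sets, 1431232_a_at and 1434746_at, differed by 0.29 each (SE 0.10 for both), without overlap between the groups, and did not pass (limma adjusted p = 0.0865 and 0.101). The first of these passed with array weights (limma adjusted p = 0.0468). Probe set 1431232_a_at was at 8.46, 8.54 and 8.62 in AID-/- and 8.35, 8.26 and 8.15 in AID+/+ arrays. The other 3 probe sets of Mga differed by -0.06, -0.04 and 0.17, and 2 of them lay below the median probe set.

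**Figure D4:**
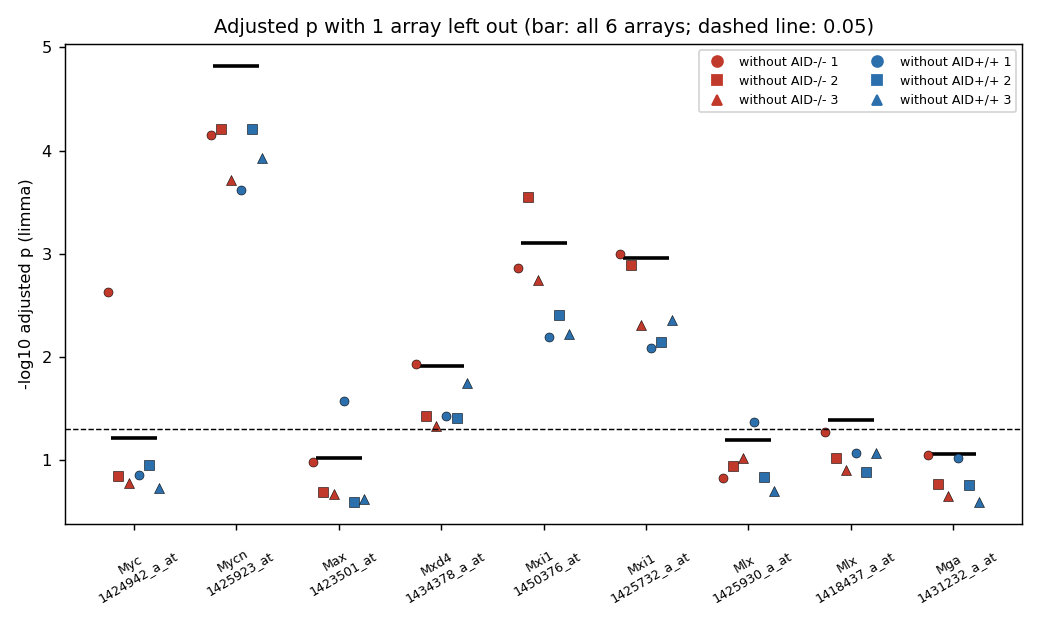
Limma adjusted p on a -log10 scale (vertical axis) for the 9 probe sets with an adjusted p under 0.1, with all 6 arrays (black bar) and with each array left out (red, AID-/- arrays; blue, AID+/+ arrays); the dashed line is 0.05. Mycn 1425923_at, both probe sets of Mxi1 and Mxd4 1434378_a_at stay past the line in all 6 fits, Mlx 1418437_a_at and Mga 1431232_a_at in none. Myc crosses it without AID-/- replicate 1, and Max and Mlx 1425930_a_at cross it without AID+/+ replicate 1.

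With each gene represented by its brightest probe set, 3 of the 10 genes were called over 18193 genes, Mycn and Mxd4 higher and Mxi1 lower. Of all genes 18.5% were called, 10.1% higher and 8.42% lower. Myc had a limma adjusted p of 0.0572 in this fit, Mlx 0.0530, Mga 0.0674 and Max 0.0842. Lists of genes around the network were set beside it at the same level, and the median difference of all genes was -0.03. The share of 18.5% includes dim genes, and the lists were not matched to it in brightness. Limma called 6267 probe sets with the filter on dim probe sets, against 6589 over the whole table.

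Genes reported to be activated by MYC moved in both directions. The test called 13 of 44 measured genes (29.5%, against 18.5% of all genes), 6 higher and 7 lower. All its measured genes except Tert lay above the median probe set, and the median difference of the list was 0.10. The 4 with the smallest p were all lower. Shmt2, the mitochondrial serine hydroxymethyltransferase, was at 10.81, 10.80 and 10.98 in AID-/- and 11.94, 11.92 and 12.07 in AID+/+ arrays, and fell by 1.12 (SE 0.09; limma adjusted p = 0.000188), with all 4 of its probe sets called lower. Slc3a2 and Slc7a5 encode the subunits of a large neutral amino acid transporter. Slc3a2 fell by 1.03 (SE 0.10) and Slc7a5 by 1.16 (SE 0.14), with limma adjusted p of 0.000531 and 0.00106. Hk2, a hexokinase, fell by 0.69 (SE 0.10; limma adjusted p = 0.00259). These 4 calls held with any single array left out. The remaining called genes were named after their values were seen. Ccnd2 (-2.34, SE 0.43), Tfap4 (-0.38) and Ldha (-0.38) were lower, and Ccnd2 had the largest difference of the list. Hspe1, Tfrc, Slc16a1, Bop1, Nop16 and Umps were higher by 0.33 to 0.91. Ccnd2, Hspe1 and Tfrc kept their calls with any single array left out, Slc16a1 lost its call without AID+/+ replicate 3, and Bop1, Tfap4, Nop16, Ldha and Umps lost theirs in 4 or 5 of the 6 such fits. The higher genes include a ribosome-assembly factor (Bop1) and the transferrin receptor (Tfrc).

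Genes reported to be repressed by MYC also moved in both directions. The test called 7 of 17 measured genes (41.2%, against 18.5% of all genes), 5 higher and 2 lower. The list median was 0.01. Cdkn1a, the gene of the cell cycle inhibitor p21, rose by 2.75 (SE 0.18), Cdkn2b, which encodes p15, by 2.11 (SE 0.23), and the antiproliferative gene Btg2 by 0.76 (SE 0.10). Cdkn1b, which encodes the inhibitor p27, fell by 0.84 (SE 0.10). The limma adjusted p-values were 4.73e-05, 0.000765, 0.00178 and 0.00127 in the same order, and all held with any single array left out. The second probe sets of Btg2 and Cdkn1b differed by 0.45 and -0.27 and did not pass, while that of Cdkn1a was called at 1.90. Cdkn1a and Btg2 are also p53 targets, so this list is not specific to MYC. The other called genes were named after their values were seen. Gadd45g was higher by 0.67 (SE 0.09) and Gadd45a by 0.90 (SE 0.22). Klf2 was lower by 2.30 (SE 0.46), the largest fall of the list. The calls on Gadd45g and Klf2 held with any single array left out. The call on Gadd45a held only without AID-/- replicate 1 among the 6 fits that left out 1 array.

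Among the network's cofactors, the test called 2 of 20 measured genes (10%, against 18.5% of all genes), 1 in each direction, and the list median was 0.00. All measured genes of this list lay above the median probe set. Sap30, a subunit of the SIN3 deacetylase complex that MXD proteins recruit, fell by 0.74 (SE 0.10; limma adjusted p = 0.00167). Its arrays were at 9.83, 9.73 and 9.80 in AID-/- and 10.38, 10.58 and 10.63 in AID+/+ leukaemia. Trrap, the scaffold of the acetyltransferase complexes that MYC recruits, rose by 0.38 (SE 0.10; limma adjusted p = 0.0287), a call that held with replicate 1 of either group left out and in no other such fit (limma adjusted p up to 0.102).

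Among genes of MYC protein turnover, the test called 3 of 22 (13.6%, against 18.5% of all genes), 2 higher and 1 lower. The list median was -0.01, and all measured genes of this list also lay above the median probe set. The kinase gene Pim1, whose product stabilises MYC, rose by 0.83 (SE 0.13; limma adjusted p = 0.00355) at its brightest probe set, and its second probe set also differed by 0.83. Usp36, a nucleolar deubiquitinase of MYC, rose by 0.36 (SE 0.09; limma adjusted p = 0.0228), a call lost without AID-/- replicate 2 or AID+/+ replicate 2 or 3 (limma adjusted p up to 0.0910), and its other probe sets differed by 0.48 and -0.29 and did not pass. Btrc, a ubiquitin ligase subunit, fell by 0.66 (SE 0.15; limma adjusted p = 0.0188), a call lost without AID-/- replicate 3 or AID+/+ replicate 3 (up to 0.0642); all 5 of its probe sets gave lower means in AID-/- leukaemia.

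The list of MLX partners and MondoA-responsive genes also holds Mycl, Usf1, Usf2, Tfe3, Tfeb and Mitf, related factors that are neither. In it limma called 2 of 14 (14.3%, against 18.5% of all genes), both lower, and the list median was -0.01. None was called higher, and 2 were higher at an unadjusted p under 0.05. The split was 2 higher and 1 lower without AID-/- replicate 1, 1 higher and 1 lower without AID+/+ replicate 1, and 2 higher and 2 lower with array weights. Usf2, an E-box-binding factor, fell by 0.55 (SE 0.10; limma adjusted p = 0.00893), and both of its probe sets were called. Klf10, a Krüppel-like repressor, fell by 0.38 (SE 0.09; limma adjusted p = 0.0253), a call that held only without AID-/- replicate 2 among the 6 fits that left out 1 array. Named for their role after their values were seen, Mlxip (MondoA) differed by 0.24 (SE 0.15), Mlxipl (ChREBP) by -0.18 (SE 0.11), Mycl by 0.18 (SE 0.11) and the MondoA target Txnip by -0.30 (SE 0.17), and none passed (limma adjusted p of 0.284 to 0.341). Mlxipl and Mycl lay below the median probe set.

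**Figure D5:**
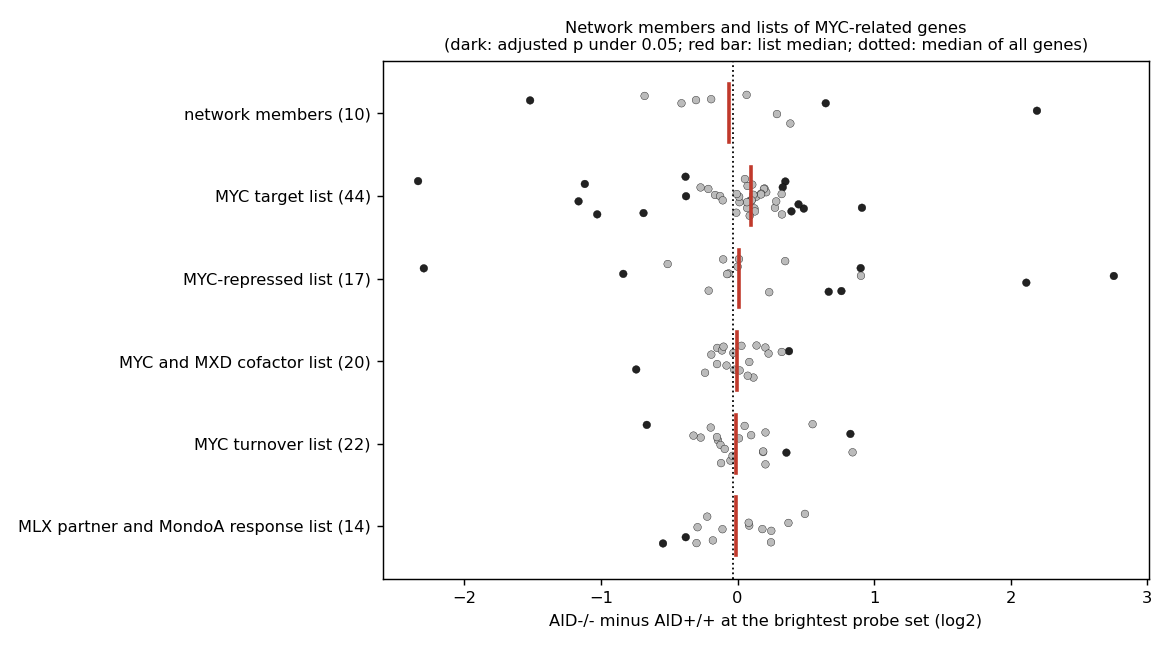
Difference AID-/- minus AID+/+ at the brightest probe set (horizontal axis, log2) for each of the 10 network genes and the genes of 5 related lists; each point is a gene, dark points passed the test, red bars are list medians and the dotted line is the median of all genes. The medians of the 5 lists lie between -0.01 and 0.10, with called genes on both sides in all lists except the MLX list, where both are lower.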

How the data were processed

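The deposited values are log2 expression values, with 1 column for each of 6 arrays; RMA and Partek are named in the submitters' processing notes without versions or order. Per the labels' protocols, biotinylated cRNA was made from 6 micrograms of total RNA. Array scans were not used here, and a genome build is not given in the sources used here. The 64 control probe sets among 45101 were removed and no other filter was applied. The platform annotation gave 34945 of the rest exactly 1 symbol, 932 several and 9160 none; Entrez identifiers linked them to current RefSeq symbols (GRCm38.p6). Array medians lay between 4.85 and 4.90, and the number of arrays limits the precision. The test was limma's moderated one (version 3.58.1, R 4.3.3; lmFit and eBayes with group as the term), two-sided, with Benjamini-Hochberg adjustment over all 45037 probe sets, or over 18193 genes at their brightest probe set, and a threshold of 0.05. The sources give no pairing, so groups were fitted without a replicate block.

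The members and lists were chosen with earlier results of these data known. The naming rule took all members, up to 4 called genes of each list with the smallest p, the 4 probe sets nearest to Myc and the sex-linked genes; other list and marker genes in the text were named after their values were seen. Alternatives were other scalings, a filter on dim probe sets, other variance models, array weights, the replicate block, other thresholds, averaged probe sets and leaving out each array. The fit was first checked on simulated data with known changes at 200 of 45037 probe sets. It made 8 false calls at unchanged probe sets. It recovered 6% of changes of 0.5, 59.7% of changes of 1 and 97% of changes of 2 (log2). Smaller changes were thus mostly missed there. Recovery in the real data may differ, because many more probe sets were called. A check of the targeted gene is not reported here.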

Additional observations from a re-analysis of the deposited data

How the results depend on the processing

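The calls on Mycn 1425923_at and both probe sets of Mxi1 held in each of the 13 alternative fits, and 4 of the 5 called probe sets kept a call in every fit that left out 1 array, the exception being Mlx 1418437_a_at. Member probe sets called numbered 3 without variance moderation, 3 at an adjusted p of 0.01 and 9 with array weights, against 5; with 1 array left out they numbered 4 to 6. Member genes called at the brightest probe set numbered 5 with median centring, 6 with the filter on dim probe sets and 7 with array weights, against 3; with 1 array left out 3 to 5. Without moderation 2363 of all probe sets were called, against 6589, and 4307 to 6109 with 1 array left out, the lowest without AID+/+ replicate 3. Without moderation the MYC target list held 6 called genes, the cofactor list 1 and the MLX list 0 in limma's ordinary linear fit, where 2 had an unadjusted p under 0.05. The MYC turnover list held 5 with the filter on dim probe sets, 5 with an intensity trend and 5 with array weights, and the MLX list 4 with array weights. With 1 array left out, called genes numbered 7 to 11 in the MYC target list (7 without AID+/+ replicate 3, 8 without AID-/- replicate 2 or AID+/+ replicate 2), 6 to 10 in the MYC-repressed list, 1 to 2 in the cofactor list, 1 to 5 in the turnover list and 1 to 3 in the MLX list. Same-numbered arrays did not deviate together (correlations of -0.045, -0.072 and 0.031), and were not fitted as pairs. With the replicate block 5369 probe sets and 4 member probe sets were called, and 8, 1 and 1 genes of the MYC target, cofactor and MLX lists. Signs turned only at uncalled probe sets: with quantile normalization Mga 1433012_at was at 0.0025, and with array weights Mxd3 1438847_at at 0.0040 and 1422970_at at 0.040. With 1 array left out, differences ranged from -0.0175 to 0.22 at Mxd1 1434830_at, -0.21 to 0.0711 at Mxd3 1438847_at, -0.18 to 0.0933 at Mxd3 1422970_at, -0.20 to 0.12 at Mxd4 1422575_at and -0.24 to 0.17 at Mga 1422646_at. The cause of these changes was not tested.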
